A study of Homo sapiens with 4 samples.

Results

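CTCF regions that ranked higher under aclarubicin than under daunorubicin are described here. They are 805 of the 4121 regions of K562 chromatin in which CTCF was called in all 4 libraries, or 19.5%, and 13959 merged regions were called in at least 1 library. Members were chosen by rank. Each library's peak list gives every peak a fold enrichment over its local background, and the highest fold in a region was turned into a percentile among the shared regions of that list, from 0 for the weakest to 100 for the strongest. A region is a member when its mean percentile in the daunorubicin libraries minus its mean percentile in the aclarubicin libraries is at most -20 points. The fold percentiles of all 4 libraries therefore chose the members, and those percentiles, with every other peak value that contrasts the drugs, are given below as a description with no test.

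K562 is a human erythroleukaemia cell line. Cells had received aclarubicin at 10 µM for 4 h or daunorubicin at 10 µM for 4 h, with 2 biological replicates of each drug, and CTCF-bound DNA was sequenced after chromatin immunoprecipitation (ChIP-seq). Untreated cells are not analysed here, so a member is a region that stood higher in the order of CTCF regions under one drug than under the other, and the values do not say whether it gained or lost CTCF relative to untreated cells. With 2 libraries against 2, an exact permutation test of a value per library cannot reach 0.05.

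CTCF is a zinc-finger protein that binds a long, well-defined DNA motif. With cohesin, which it halts on the chromatin fibre, it marks the bases of many chromatin loops and the borders of contact domains, and it can insulate a gene from an enhancer. Both drugs are anthracyclines, planar molecules that slide between DNA base pairs and carry sugars in the minor groove. Daunorubicin traps topoisomerase II on cut DNA, whereas aclarubicin acts without producing such breaks, and both can evict histones. Which genes, promoters or CTCF motifs lie at the positions below was not analysed here, since a genome of the files' build (GRCh37/hg19, per the submitters' processing notes) was not used here.

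The members stood in the upper part of the aclarubicin lists and the lower part of the daunorubicin lists. Their median fold percentile was 68.5 and 69.7 in aclarubicin replicates 1 and 2, against 28.5 and 28.6 in daunorubicin replicates 1 and 2. The median difference over the members was -32.0 points (quartiles -42.2 and -25.0), and the lowest was -83.5 points. In 235 members (5.70% of all shared regions) the difference was -40 points or lower, and in 48 (1.16%) it was -60 points or lower. Falls of at least 20 points were rarer between replicates of one drug. From aclarubicin replicate 1 to replicate 2, 225 of the 4121 shared regions (5.46%) moved down by at least 20 points, and from daunorubicin replicate 1 to replicate 2, 540 did (13.1%). In the 4 pairs of one library of each drug, between 886 (21.5%) and 939 (22.8%) stood at least 20 points lower under daunorubicin. The opposite side was as large, with 825 shared regions (20%) at a mean of 20 points or more higher under daunorubicin.

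**Figure D1:**
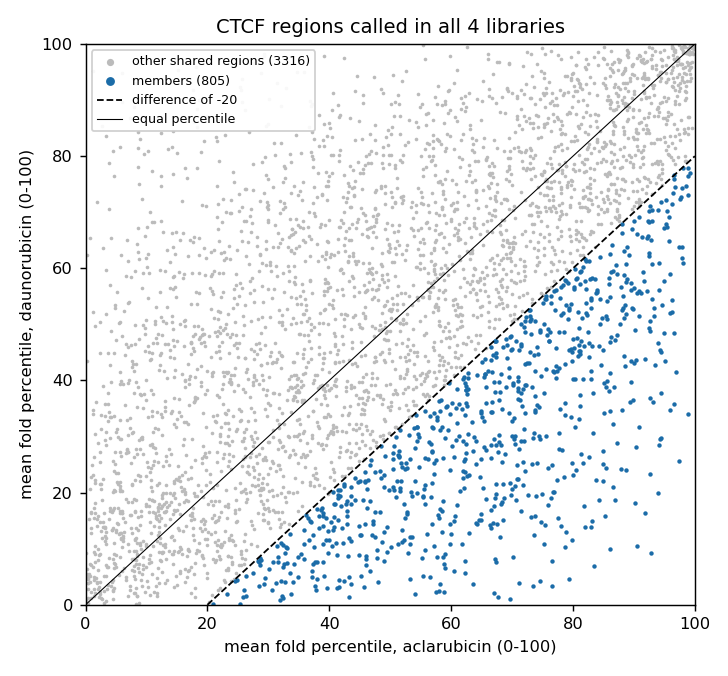
Mean fold percentile of each of the 4121 shared regions under aclarubicin (horizontal axis, 0 to 100) and under daunorubicin (vertical axis, 0 to 100). Members (blue, 805 regions) lie on or below the dashed line at a difference of -20 points, and none has a mean aclarubicin percentile under 20 because the rule leaves no room there.

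The median gap between replicates of one drug was of similar size in the members and in all shared regions. The gap between the aclarubicin replicates had a median of 6.81 points in the members and 6.65 points in all shared regions. The gap between the daunorubicin replicates was wider, at 11.9 points in the members and 11 points in all shared regions. Some members had far wider gaps. At chr7:140143741-140144285 the daunorubicin percentiles were 6.14 and 66.8, and the second lay above both aclarubicin percentiles (55.2 and 61.4). Both aclarubicin percentiles lay above both daunorubicin percentiles in 767 of the 805 members, where the rule itself favours such an order, against 31.5% of all shared regions. Both same-numbered pairs of libraries, the replicate block, were at -20 points or lower in 513 members, or 12.4% of all shared regions. Each of the 4 pairings of one daunorubicin with one aclarubicin library gave -20 points or lower in 428 members, or 10.4% of all shared regions. Any region that meets either condition is a member by the rule, so these counts only describe the members.

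Regions were then chosen anew on a single library of each drug and read in the remaining libraries. Choosing on replicate 1 of each drug alone gave 939 regions with a difference of at most -20 points. In replicate 2 of each drug, 774 of these 939 (82.4%) were again lower under daunorubicin, against 49.5% of all shared regions, and 513 (54.6%) were again at -20 points or lower, against 22%. The median difference shrank from -32.9 points in the libraries that chose to -22.7 points in those held out. Choosing on replicate 2 of each drug and reading replicate 1 gave 764 of 905 regions (84.4%) that were lower under daunorubicin, against 50.5% of all shared regions, and 513 (56.7%) at -20 points or lower, against 22.8%. Crossing the replicates gave 748 of 886 lower regions (84.4%, against 50%) with 512 at -20 points or lower (57.8%, against 22.2%) when aclarubicin replicate 1 and daunorubicin replicate 2 chose. When aclarubicin replicate 2 and daunorubicin replicate 1 chose, it gave 776 of 916 (84.7%, against 50.6%) and 512 (55.9%, against 21.5%). In each of the 4 ways most chosen regions kept the direction in the other libraries, and the size of the difference was kept less often. The 4 ways reuse the same 4 libraries, whose percentiles also chose the members, so they are not independent of each other or of the rule. These chosen sets differ from the member set, but a region at -20 points or lower in both the choosing and the held-out libraries is a member by the rule. The 513 regions of the same-numbered ways are thus the replicate block given above. The shares over all shared regions include regions too low under aclarubicin to fall by 20 points. All shared regions had to be called in the held-out libraries too, so a region that fell below the calling threshold there does not enter these counts.

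**Figure D2:**
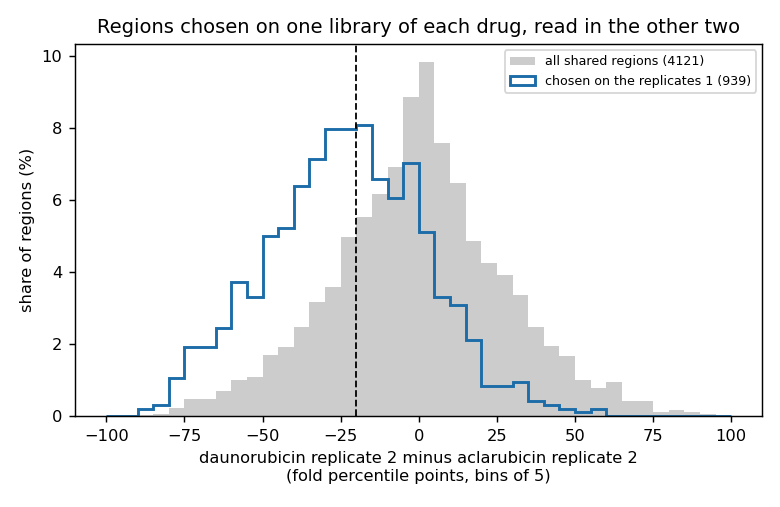
Difference in fold percentile between daunorubicin replicate 2 and aclarubicin replicate 2 (horizontal axis, points, in bins of 5) as a share of regions (vertical axis, %), for all 4121 shared regions (grey) and for the 939 regions chosen on replicate 1 of each drug (blue outline). The chosen regions have a median of -22.7 points and 54.6% of them lie at or below the dashed line at -20 points, against 22% of all shared regions.

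Members were spread over most of the aclarubicin range. The rule admits none with a mean aclarubicin percentile under 20, and 18 of the 412 shared regions between 20 and 30 were members (4.37%). The share was highest, at 156 of 421 (37.1%), between 70 and 80, and was 93 of 363 (25.6%) between 90 and 100. At the lower end of the daunorubicin order, 109 members had a mean daunorubicin percentile under 10. These were 34.4% of the 317 shared regions in that band.

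Behind the ranks, the members carried more aclarubicin fragments and fewer daunorubicin fragments than the typical shared region. The number of fragments over a summit and the background expected there were solved from the deposited fold and −log10 p of the peak, with a Poisson formula that is assumed for the peak caller. The members had medians of 99 and 102 fragments in the aclarubicin libraries, and of 33 and 33 in the daunorubicin libraries. Over all shared regions the medians were 76 and 80, and 41 and 43. The daunorubicin to aclarubicin ratio of fragments, unscaled, had a median of 0.346 in the members (quartiles 0.286 and 0.417) and 0.544 in all shared regions, and it exceeded 1 in 0 members and in 9.49% of all shared regions. The relative depth of the libraries, which spans 0.814 to 1.04 of aclarubicin replicate 1, applies alike to members and all shared regions. The background differed less between these sets. Its daunorubicin to aclarubicin ratio had a median of 0.541 in the members and 0.607 in all shared regions. The median background of a member was 7.08 and 7.59 fragments under aclarubicin, against 7.12 and 7.59 over all shared regions, and 4.19 and 3.82 fragments under daunorubicin, against 4.55 and 4.15.

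Peak width and calling strength followed the same order. Member peaks had a median width of 467 and 476 bp under aclarubicin and 316 and 334 bp under daunorubicin, where all shared regions had 431 and 447 bp and 337 and 358 bp. Both aclarubicin peaks were wider than both daunorubicin peaks in 706 members (87.7%) and in 67.6% of all shared regions. The median −log10 q, the authors' adjusted measure of how far a peak stands above background, was 71.1 and 70.7 under aclarubicin, against 14.8 and 16.8 under daunorubicin. Over all shared regions it was 48.6 and 50.9 against 22.4 and 25.4, so it was lower under daunorubicin there too. No member had a −log10 q under 10 in an aclarubicin library, and 3.81% of all shared regions did. In a daunorubicin library, 224 members (27.8%) had one under 10, against 13.2% of all shared regions, and 29 (3.6%) had one under 5, against 1.21%. These members were the nearest to dropping out of the daunorubicin lists. The summit did not move far. The median distance between the summits of an aclarubicin and a daunorubicin peak was 17 to 20 bp in the members, against 11 bp between the aclarubicin replicates and 23 bp between the daunorubicin replicates. Over all shared regions it was 16 bp between the drugs, 13 bp between the aclarubicin replicates and 17 bp between the daunorubicin replicates. The distance between the drugs exceeded 100 bp in 1.12% to 2.24% of members, depending on the pair of libraries, and in 2.04% to 2.28% of all shared regions. No member held more than 1 peak of any list.

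The member with the lowest difference was chr16:85649410-85650073. The fold percentiles were 92.5 and 93.1 for aclarubicin, and 4.54 and 14.1 for daunorubicin, from folds of 16.2 and 15.7 and of 4.65 and 6.10. It held 334 and 339 fragments under aclarubicin and 34 and 40 under daunorubicin. The drugs are far apart here and the replicates of each are close.

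The second, chr7:143002447-143003012, had percentiles of 93.9 and 87.1 under aclarubicin, against 5.24 and 15.6 under daunorubicin, with 207 and 175 fragments against 28 and 38. The third, chr1:156326632-156327167, had percentiles of 84.3 and 82.4 against 7.99 and 5.70, and 170 and 166 fragments against 28 and 25. Next came chr1:212208171-212208972, with percentiles of 83.8 and 88.4 against 12.0 and 7.89, and 202 and 211 fragments against 45 and 42. In these regions the lowest aclarubicin percentile exceeded the highest daunorubicin one by 71.5, 74.4 and 71.9 points, and no replicates of a drug lay more than 10.3 points apart.

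The next members varied more between replicates. At chr6:131949243-131949755 the percentiles were 95.9 and 87.7 under aclarubicin, against 24.8 and 7.84 under daunorubicin, and at chr6:56819993-56820521 they were 71.7 and 86.8 against 7.74 and 1.46. At chr4:141444778-141445532 they were 97.6 and 90.5 against 38.8 and 0.898. That region held 73 and 61 fragments under aclarubicin and 21 and 11 under daunorubicin, and its −log10 q of 2.84 in daunorubicin replicate 2 was the lowest of any member.

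The remaining members among the 10 lowest were on chromosomes 16, 5 and 17. chr16:18812841-18813422 had percentiles of 73.5 and 79.6 against 5.75 and 0.874, and chr5:118323636-118324541 had 87.7 and 92.5 against 22.8 and 13.6. At chr17:17045088-17045624 they were 97.0 and 97.9 against 20.6 and 30.7, with 239 and 258 fragments under aclarubicin and 29 and 33 under daunorubicin. None of the 10 overlapped between the drugs, as their choice by the lowest difference favours, against 31.5% of all shared regions in which aclarubicin lay wholly above daunorubicin.

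**Figure D3:**
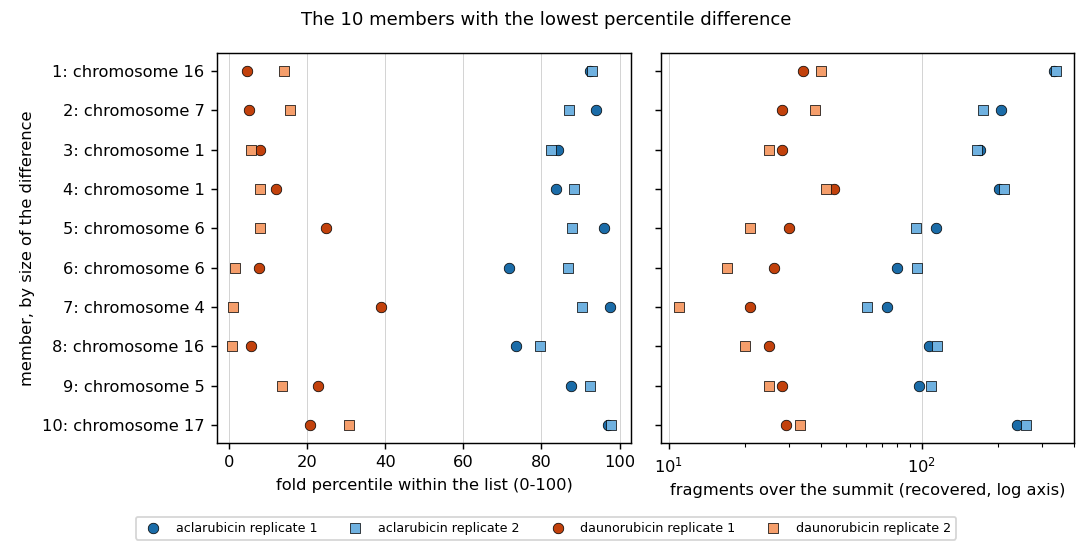
The 10 members with the lowest percentile difference, one per line and named by chromosome, with the fold percentile in each library (left, 0 to 100) and the recovered fragments over the summit (right, log axis). Blue points are aclarubicin and orange points daunorubicin, circles are replicate 1 and squares replicate 2; blue and orange points do not overlap on any line, and the daunorubicin replicates lie furthest apart on line 7 (38.8 and 0.898).

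Members at the very top of the aclarubicin order mostly had smaller differences. The 10 members with the highest mean aclarubicin percentile shared 0 regions with the 10 lowest differences. The first of them was chr10:24906661-24907148, with percentiles of 99.3 and 99.2 under aclarubicin, against 90.8 and 63.3 under daunorubicin. The second, chr22:50780613-50781233, had 98.4 and 99.4 against 67.5 and 78.7, and the third, chr16:56998356-56998957, had 98.9 and 99 against 76.2 and 79.3. These differences lay between -25.8 and -21.1 points. Of the rest, all but 1 lay between -37.2 and -20.2 points. The exception was far lower. At chr10:54074107-54074560 the percentiles were 98.5 and 99.1 under aclarubicin, against 43.4 and 24.5 under daunorubicin, a difference of -64.8 points, with 105 and 102 fragments against 19 and 16.

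At the edge of the rule the choice rests on small margins. The member nearest inside was chr16:30198499-30199080, at -20.04 points, with percentiles of 97.3 and 95.8 under aclarubicin, against 95.7 and 57.4 under daunorubicin. Next inside were chr19:36040036-36040535 (68.2 and 66.1 against 34.4 and 59.7) and chr16:58521562-58522052 (62.4 and 57.0 against 55.6 and 23.6). Just outside, all at -19.9 points, were chr4:6682863-6683312 (40.9 and 38.5 against 19.0 and 20.6), chr9:103357903-103358272 (85.4 and 64.8 against 61.6 and 48.8) and chr1:231052917-231053416 (67.6 and 74.1 against 25.7 and 76.3). In the members just inside, the daunorubicin replicates were 38.3, 25.3 and 32.0 points apart. With the higher of those daunorubicin libraries alone, the differences would be -0.89, -7.40 and -4.08 points, so 1 daunorubicin library decides whether they are members.

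Position on the chromosome was not used by the rule. Members made up 26.1% of the shared regions of chromosome 7 (47 of 180), 23.8% of those of chromosome 12 (49 of 206), 23.7% of those of chromosome 18 (9 of 38) and 23.3% of those of chromosome 5 (38 of 163), beside 19.5% overall. The share was lower on chromosome 22, with 13 of 129 (10.1%), on chromosome 9, with 24 of 168 (14.3%), and on chromosome 19, with 57 of 397 (14.4%). Chromosome 13 had 2 members among 27 shared regions. Local background differed between chromosomes too. In aclarubicin replicate 1 its median over shared regions was 8.64 fragments on chromosome 22, 7.72 on chromosome 9 and 11.3 on chromosome 19. It was 5.80 on chromosome 7, 8.26 on chromosome 12, 5.26 on chromosome 5 and 3.55 on chromosome 18. On chromosome 13, which had the lowest member share (7.41%), the background was also lowest, at 3.03 fragments. It was 6.07 on chromosome 15, where the share was 14.5%, and 9.43 on chromosome 16, where the share was 21.5%. The part of local background in the shares was not tested.

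**Figure D4:**
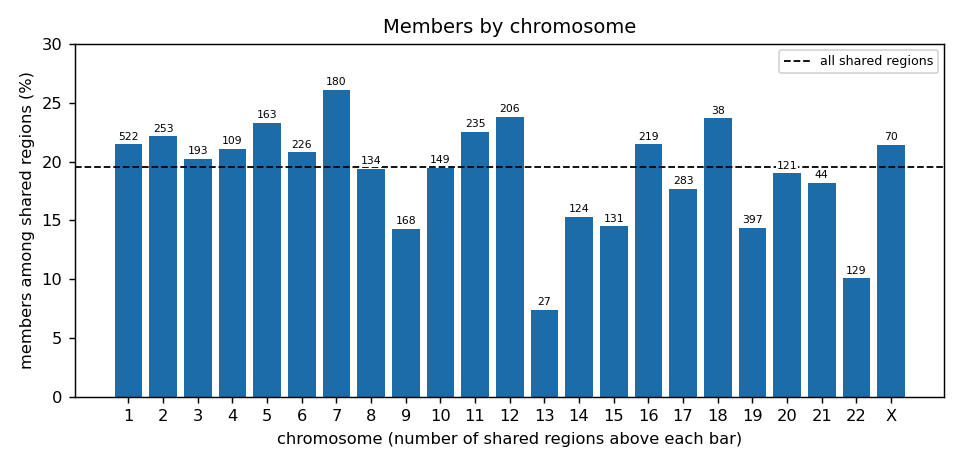
Members as a share of the shared regions of each chromosome (vertical axis, %), with the number of shared regions printed above each bar and the share over all chromosomes as a dashed line (19.5%). Chromosome 7 is highest at 26.1%, and chromosomes 13 and 22 are lowest, with 2 of 27 and 13 of 129 regions.

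Members stood somewhat more alone than the shared regions as a whole. Another merged region, called in any library, lay within 10 kb of 151 members (18.8%, 95% Wilson interval 16.2% to 21.6%), against 1092 of all 4121 shared regions (26.5%). The intervals treat regions as independent, which neighbours are not. The median distance to the nearest merged region was 31.1 kb for the members and 23.1 kb for all shared regions. Among the shared regions that are not members, the share with such a neighbour was 39.2% below the 25th aclarubicin percentile and 18.1% above the 75th, and the members lay mostly in the upper bands. Between the 25th and 50th percentiles a neighbour lay within 10 kb of 25.2% of members and 29.0% of other shared regions, and between the 50th and 75th of 19.8% and 22.7%. Above the 75th it was 13.5% of members against the 18.1% above. In these 3 bands the gap to other shared regions was smaller than the gap to all shared regions given first. The comparisons are unlike, since all shared regions include the members. Below the 25th percentile, with only 4 members, 75% of them had such a neighbour. Near chromosome ends, 88 members (10.9%) lay within 5 Mb of an end, against 13.6% of all shared regions, but within 1 Mb the shares were 3.11% and 2.91%.

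The nearest shared region was itself a member for 178 of 805 members (22.1%), against 17.5% of the other shared regions. By distance to that nearest region, the shares were 17.9% (12 of 67 members) and 13.8% within 10 kb. They were 23.0% (49 of 213 members) and 16.2% from 10 to 50 kb. From 50 to 100 kb they were 24.6% (30 of 122 members) and 16.1%, and from 100 to 500 kb 21.8% (64 of 294 members) and 20.1%. A member thus had a member as its nearest shared region somewhat more often at each of these distances, with no test of the difference. Members that are nearest to each other count for each, and the member share differs between chromosomes. The median difference at the nearest region was -0.99 points for members and -0.07 points for the other shared regions, so most nearest regions did not carry the shift. Within 10 kb these medians were 3.57 and 0.68 points, the opposite direction to that of the members. They were -2.86 and 0.64 points from 10 to 50 kb and -0.50 and 0.53 points from 50 to 100 kb. From 100 to 500 kb they were -0.09 and -0.77 points. Of the merged regions adjoining a member on either side, 22.5% were called in both aclarubicin libraries only and 3.85% in both daunorubicin libraries only, against 23.4% and 3.33% adjoining all shared regions. Regions called in all 4 libraries made up 30.0% of those adjoining a member and 32.0% of those adjoining all shared regions.

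Runs of members were counted, but how many the overall share of 19.5% alone would give was not computed. The counts only describe the members. Of the 805 members, 500 had no member next to them in the order of shared regions along the chromosome. A further 218 came in pairs, and the longest runs held 5 members. There were 4 such runs, spanning 169 kb on chromosome 16, 1112 kb on chromosome 12, 2097 kb on chromosome 7 and 7200 kb on chromosome 1. The shortest, chr16:85524527-85693815, contains the member with the lowest difference. It held 8 merged regions, of which 5 were members, 2 were called in both aclarubicin libraries only and 0 in both daunorubicin libraries only.

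The 5 members of this run were not alike under daunorubicin. The first, chr16:85524527-85525026, had percentiles of 41.2 and 42.2 under aclarubicin, against 0.170 and 6.07 under daunorubicin, with 152 and 143 fragments against 21 and 33. At the second, chr16:85597974-85598529, they were 75.6 and 63.8 against 0.801 and 1.41, with 351 and 332 fragments against 45 and 41. By fold, both were among the weakest shared regions of the daunorubicin lists. The daunorubicin fragments of the second were near the medians over all shared regions, 41 and 43. Its background was 10.6 and 8.72 fragments under daunorubicin, against medians of 4.55 and 4.15 over all shared regions. Under aclarubicin its background was 26.0 and 28.1 fragments, against 7.12 and 7.59. The third, chr16:85643827-85644599, had 87.6 and 88.3 against 49.5 and 55.5, with 333 and 316 fragments against 78 and 80. It lies 5.5 kb from the next, the lowest member described above, which had nearly the same fragments under aclarubicin and 34 and 40 under daunorubicin. At the last, chr16:85693244-85693815, they were 46.9 and 50.1 against 13 and 32.2. At every member of the run, both aclarubicin libraries held over 3 times the fragments of either daunorubicin library.

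**Figure D5:**
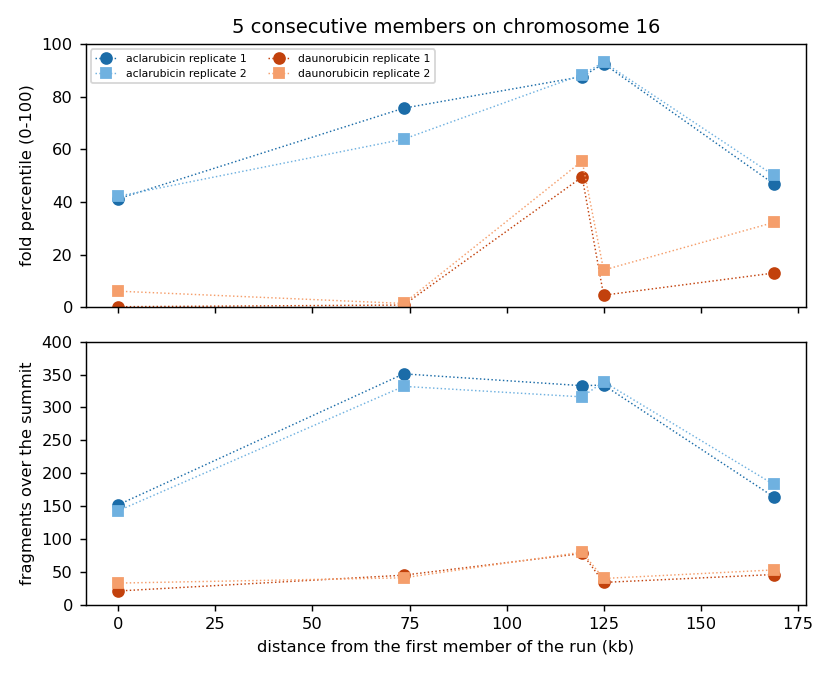
Fold percentile (top, 0 to 100) and recovered fragments over the summit (bottom) at the 5 consecutive members on chromosome 16, by distance from the first (horizontal axis, kb), in each library. Aclarubicin (blue) lies above daunorubicin (orange) at every member, and the third member and the one after it have similar aclarubicin fragments (333 and 316; 334 and 339) but different daunorubicin fragments (78 and 80; 34 and 40).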

How the data were processed

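Peak lists of CTCF ChIP-seq in 4 K562 libraries were used, 1 list per library, so replicates were not pooled. Per the submitters' processing notes, Bowtie2, Picard and bedtools were used with GRCh37/hg19; the peak caller, its threshold and any control library are not given in the sources used here. The lists held 10633 and 10711 peaks under aclarubicin and 5886 and 6638 under daunorubicin. The deposited fold is the authors' ratio of a peak to its local background, the deposited −log10 p and the deposited −log10 q come from the authors for each peak, and the deposited score equals 10 times the −log10 q, cut to a whole number, for at least 99.9% of peaks in each list. These describe and rank peaks within a list only.

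Intervals of all 4 lists on chromosomes 1 to 22 and X were merged when they shared at least 1 bp. Percentiles ran from 0 to 100 among the 4121 regions called in all 4 libraries. The fragments k over a summit and the background λ were solved from fold = (k + 1)/(λ + 1) and a Poisson p, a formula assumed for the peak caller. In each list, k came out whole, to within 0.02, for 100% of peaks. The lists hold no read totals. The lowest λ over the shortest peak gave relative depths of 1.04, 0.997 and 0.814 for aclarubicin replicate 2 and daunorubicin replicates 1 and 2, with aclarubicin replicate 1 set to 1.

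Groups follow the labels. The labels do not say that replicate numbers pair libraries, and the replicate differences of the drugs correlated at -0.05 over the shared regions. Named regions are the 10 members with the lowest difference, the 10 with the highest mean aclarubicin percentile, the 3 nearest inside and outside the limit, and the longest runs. The members and lists were chosen with earlier results of these data known. Alternatives were other ranking columns, limits, thresholds and overlaps, equal lists, a replicate block, and leaving out single replicates; the neighbour share within bands of the aclarubicin percentile was added after seeing the data. Distances to chromosome ends used GRCh37 lengths entered by hand. Wilson intervals are at 95% and cover counting error only. Scripts were tested on simulated data. Analyses used Python 3.11.15, numpy 2.4.6, pandas 2.3.3, scipy 1.17.1 and matplotlib 3.10.9.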

Additional observations from a re-analysis of the deposited data

How the results depend on the processing

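The number of members depended on the limit, with 1335 regions at -10 points and 457 at -30 points. The replicate block, with both same-numbered pairs at -20 points or lower, kept 513. The other alternatives gave 614 of 3330 shared regions (lists of equal length, 18.4%) to 898 of 4121 (without daunorubicin replicate 2, 21.8%), within 1.5 times of 805. A similar count does not mean the same regions. Ranking by −log10 p or −log10 q gave 793 regions, of which 603 were members, and ranking by fragments gave 642, of which 486 were members. For the same members, the median difference was -30 points by −log10 p and by −log10 q and -24.3 points by fragments, and -34.0 to -33.0 points with a replicate left out, where the choice of members by the same percentiles fixes the sign. Held-out shares by −log10 p were 58.1%, 61.0%, 61.6% and 61.3%. A merged region lay within 5 kb of 7.45% and within 20 kb of 37.9% of members (11.8% and 45.5% of all shared regions), and a region called in all 4 libraries within 5 kb of 2.48% and within 10 kb of 8.32% (4.46% and 10.8%). By band of the aclarubicin percentile, the share within 10 kb was 75% (4 members, 0 to 25), 25.2% (25 to 50) and 13.5% (75 to 100). Within 1 Mb of a chromosome end lay 3.11% and within 10 Mb 20.7% of members (2.91% and 24.0% of all shared regions). The planned promoter, GC and motif results were not run, as they need a genome of the files' build. A region without a call in a library has no value there, so the members are limited to regions strong enough to be called under both drugs.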

Other observations

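In 14 members (1.74%) the percentile of the fragments over the summit was not lower under daunorubicin than under aclarubicin, although that of the fold was. The same count over all shared regions was not computed. In these 14 members the daunorubicin to aclarubicin ratio of background had a median of 0.967, against 0.541 over all members and 0.607 over all shared regions. Background is solved from fold and fragments, so choosing these 14 by those ranks itself favours a higher ratio. The value only describes them. Their median ratio of fragments was 0.619, against 0.346 over all members and 0.544 over all shared regions. These members hold the rank shift by fold and not by fragments.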
